A study of Mus musculus with 6 samples.

Results

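The genes described here encode receptors for glutamate and GABA, the main excitatory and inhibitory transmitters of the brain. They comprise 4 AMPA, 5 kainate and 6 NMDA receptor subunits, 6 metabotropic glutamate receptors, 8 GABA-A subunits and 2 GABA-B subunits. These 31 genes were taken by symbol from a table of 18211 genes. The rule used no measured values, but earlier results of these data were known when it was set. RNA was sequenced from cells labelled oligodendroglia progenitor cells (OPCs), taken from C57BL/6 mice at postnatal day 7. The wildtype group had 3 libraries, and so had the group carrying NG2-CreERTM with 1 floxed allele of Disc1 exon 3 (fl/+, called DISC1-Δ3). Wildtype controls lacked CreERT, and both groups were gavaged with tamoxifen from P4 to P7. In DISC1-Δ3 mice the NG2 promoter drives the tamoxifen-dependent recombinase, so that recombination is expected in NG2-expressing cells, and the other Disc1 allele stays intact. OPCs are glia that divide and give rise to myelinating oligodendrocytes, and here they were captured with antibody to PDGFRα and lysed without culture. The sources used here do not say whether a library came from 1 mouse or from a pool, nor whether libraries of a group came from separate mice, so p-values measure the spread between libraries, which may be technical.

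AMPA, kainate and NMDA receptors are ion channels built of several subunits, which glutamate opens, whereas metabotropic glutamate receptors act through G proteins. GABA-A receptors are chloride channels of mixed subunits, and GABA-B receptors are G protein-coupled dimers. OPCs form synapses with neurons and carry functional AMPA and GABA-A receptors. The GluA2 subunit, encoded by Gria2, makes AMPA receptors poorly permeable to calcium.

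The 6 libraries held 13716619 to 16417219 assigned reads, and genes were tested where RPKM, the read count per kilobase of transcript, scaled to library total, was at least 0.5 in at least 3 of 6 libraries. Disc1, the targeted gene, had 3.51, 3.34 and 3.81 RPKM in wildtype and 2.86, 2.44 and 2.85 RPKM in DISC1-Δ3 libraries, a log2 fold change of -0.45 (adjusted p = 0.000528); gene-level values do not resolve exon 3. Markers of other cells were abundant in the libraries labelled as OPCs. Summed over 8 markers each, RPKM in wildtype was 485 to 504 for OPC genes, 8280 to 8580 for microglia genes, 1490 to 1520 for astrocyte genes and 2440 to 2480 for mature oligodendrocyte genes. A set of 14 neuron markers summed to 256 to 267 RPKM. These sums moved with genotype. In DISC1-Δ3 libraries they were 607 to 632 for OPC markers (6 of 8 higher, 1 lower), 6110 to 6290 for microglia markers (8 of 8 lower), 1380 to 1410 for astrocyte markers (1 of 8 higher, 7 lower), 2260 to 2290 for mature oligodendrocyte markers (5 of 8 lower) and 357 to 369 for neuron markers (12 of 14 higher, 0 lower by edgeR and by DESeq2, 1 lower at an unadjusted p under 0.05). None of these markers was listed at 0 in any library. Beside these marker counts, 20.4% of all tested genes were higher and 19.5% lower. In RNA from a mixture, fewer cells of a type and less RNA per cell cannot be told apart, and the values below belong to the whole isolate. DISC1-Δ3 replicate 3 stood apart from its group: the chi-square per degree of freedom between its reads and those of replicates 1 and 2 was 5.24 and 4.98, against 2.65 between those replicates and 1.81 to 2.92 between wildtype libraries. Results that rest on it are given with and without it.

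RefSeq promoter windows, from 250 bases before to 50 bases after an annotated start site on GRCm38.p6, were held for 23 of the 31 genes, in 30 windows. The windows of the genes with the strongest changes that the table held are printed here, 2 with higher and 2 with lower transcript in DISC1-Δ3 libraries, to show how different the start regions of these genes are. They are 5′ to 3′ on the gene's strand, with CpG dinucleotides in capitals.
Grik4, chr9:42944322-42944621 (minus strand): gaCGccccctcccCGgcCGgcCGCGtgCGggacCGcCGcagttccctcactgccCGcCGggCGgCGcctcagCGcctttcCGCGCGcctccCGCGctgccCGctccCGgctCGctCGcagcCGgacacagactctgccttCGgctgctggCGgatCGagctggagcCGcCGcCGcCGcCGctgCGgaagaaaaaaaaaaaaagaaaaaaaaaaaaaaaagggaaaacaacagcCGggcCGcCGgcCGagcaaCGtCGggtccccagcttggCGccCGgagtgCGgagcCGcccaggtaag
Grm7, chr6:110645262-110645561 (plus strand): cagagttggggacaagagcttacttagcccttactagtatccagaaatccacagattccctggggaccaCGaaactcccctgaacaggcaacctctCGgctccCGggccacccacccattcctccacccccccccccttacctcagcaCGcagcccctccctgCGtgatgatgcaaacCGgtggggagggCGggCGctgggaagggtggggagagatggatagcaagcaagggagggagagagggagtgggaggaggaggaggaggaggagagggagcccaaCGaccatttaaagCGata
Gabrb1, chr5:71657671-71657970 (plus strand): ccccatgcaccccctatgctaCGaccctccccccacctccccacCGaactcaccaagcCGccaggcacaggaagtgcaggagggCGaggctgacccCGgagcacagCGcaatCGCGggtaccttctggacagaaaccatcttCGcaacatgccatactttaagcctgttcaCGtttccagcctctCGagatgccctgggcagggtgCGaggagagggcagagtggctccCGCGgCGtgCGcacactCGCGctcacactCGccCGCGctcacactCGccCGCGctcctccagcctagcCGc
Gabrg1, chr5:70842568-70842867 (minus strand): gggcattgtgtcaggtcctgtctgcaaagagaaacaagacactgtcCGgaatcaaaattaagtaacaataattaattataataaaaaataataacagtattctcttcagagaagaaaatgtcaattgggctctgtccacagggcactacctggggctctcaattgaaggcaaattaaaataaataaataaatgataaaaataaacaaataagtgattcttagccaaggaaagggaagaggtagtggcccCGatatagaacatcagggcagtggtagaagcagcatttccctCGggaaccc
CpG-rich starts are common among broadly used promoters. The Grik4 window held 42 CpG dinucleotides at 70% GC and the Gabrg1 window 3 at 38.3% GC, against a median of 7 over all 32851 windows. Gabrb1 and Grm7 each had 2 windows, of which the upstream one is printed. The printed Gabrb1 window held 25 CpG dinucleotides at 66% GC and its other window 9 at 50.3%, and the Grm7 windows held 10 at 61% and 15 at 66.7%. Gabrb1 and Gabra4 start head to head on chromosome 5, and their gene models overlap by 388 bases. The letters CTTTGAT or CTTTGTT, which TCF/LEF factors of the Wnt pathway can bind, were searched on both strands. They were in 1 of the 30 windows (3.33%), a Gabrb2 window, and in 9.33% of all windows.

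Receptor transcripts shifted in both directions between the genotypes. Of the 31 genes, 27 passed the level filter. In edgeR's quasi-likelihood fit, with p-values adjusted by Benjamini-Hochberg over all 13792 tested genes, 10 were higher in DISC1-Δ3 libraries, 7 were lower and 10 did not pass the threshold of 0.05. Among all tested genes 20.4% were higher and 19.5% lower. The median log2 fold change was 0.06 over the 27 genes and 0.01 over all tested genes. Glutamate receptor genes counted 8 higher and 3 lower of 18, with a median log2 fold change of 0.29, and GABA receptor genes 2 higher and 4 lower of 9, with a median of -0.24. Without the filter all 31 genes were tested, and 12 were higher and 7 lower, beside 2898 higher and 2855 lower of 18172 genes. Without DISC1-Δ3 replicate 3 the counts were 9 higher and 9 lower. Among all 13792 tested genes that fit called 2918 higher and 3314 lower, beside 2807 and 2691 with all libraries. RPKM did not overlap between the genotypes for 16 of the 27 genes, and for 52% of all tested genes.

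**Figure D1:**
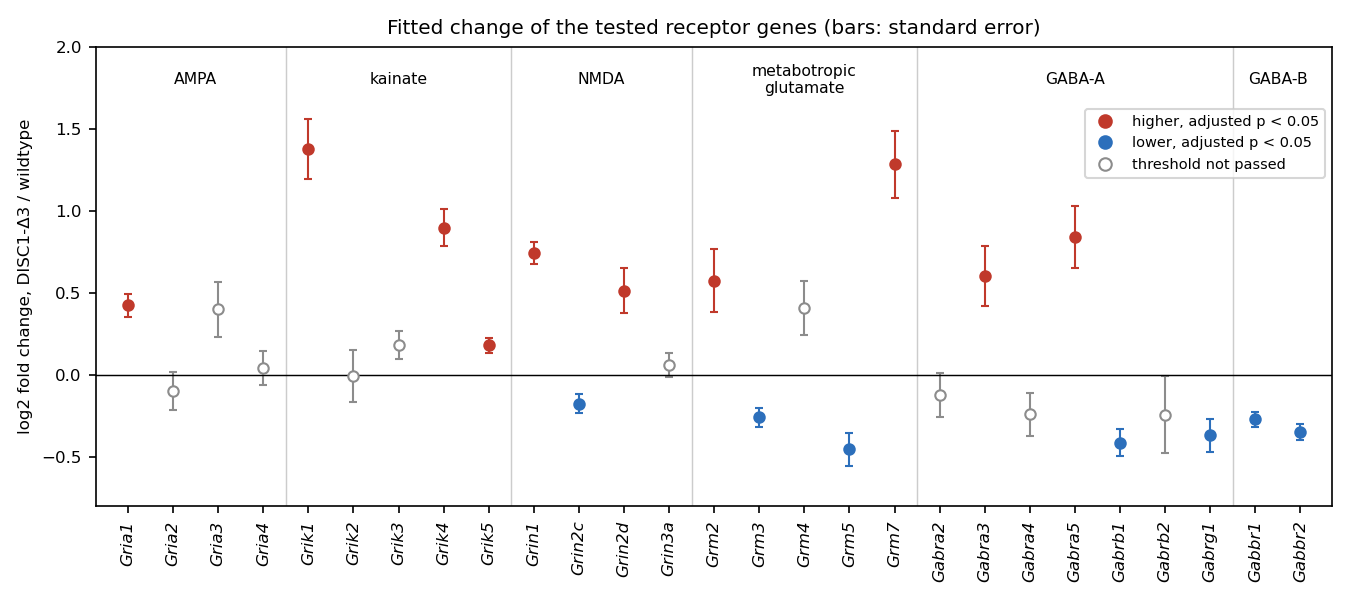
Fitted log2 fold change of each tested receptor gene (y axis, DISC1-Δ3 over wildtype, 3 libraries each; bars are the standard error), by receptor family. Grik1 (1.38) and Grm7 (1.28) stand highest, and both GABA-B genes lie below 0.

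The scale affects small changes. The fit scaled reads by TMM factors, which were 0.970 to 0.973 in wildtype and 1.02 to 1.04 in DISC1-Δ3 libraries, while the deposited RPKM carries no such factor. This factor lowers a fitted change relative to the ratio of RPKM beside it, and the transcript length used for RPKM, which varied between libraries for some genes, can move the ratio either way, as for Grm4. With reads scaled by RPKM sums instead, the median over all tested genes was 0.09, and 13 receptor genes were higher and 6 lower. That scaling moved the share of all calls that were higher from 51.1% to 70%.

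Among the AMPA receptor genes, only Gria1 passed the threshold. Gria1 (gene ID 14799, chr11:57011571-57330244), which encodes GluA1, had 6.80, 5.77 and 6.09 RPKM in wildtype and 8.55, 8.94 and 8.99 RPKM in DISC1-Δ3 libraries. Every DISC1-Δ3 library lay above every wildtype library, and the log2 fold change was 0.42 (SE, standard error, 0.071, adjusted p = 0.000124). Gria2 had 7.85, 7.34 and 7.91 RPKM in wildtype and 6.64, 7.31 and 10.7 RPKM in DISC1-Δ3 libraries. DISC1-Δ3 replicates 1 and 2 lay below all wildtype libraries and replicate 3 above all of them. With all libraries its log2 fold change was -0.10 (adjusted p = 0.518), and without replicate 3 it was -0.34 (adjusted p = 9.82e-05). Gria3 and Gria4, which encode GluA3 and GluA4, did not pass, with log2 fold changes of 0.40 (adjusted p = 0.0707) and 0.04 (adjusted p = 0.791; -0.07 without replicate 3). Gria3 passed in 3 of the 14 alternatives, among them the fits without replicate 2 of wildtype (0.57) or of DISC1-Δ3 (0.49), and its range over all of them was 0.25 to 0.57.

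The AMPA subunit shares also turned on replicate 3. Shares were taken from RPKM, which depends on the transcript length used. For Gria2 the length implied by reads and RPKM averaged 7283 bases in wildtype and 6734 bases in DISC1-Δ3 libraries. A shorter length gives a higher RPKM from the same reads. GluA2 transcript made up 42.7, 43.0 and 44.4% of summed AMPA RPKM in wildtype libraries, and 34.2, 35.8 and 43.0% in DISC1-Δ3 libraries. Replicate 3 lay within the wildtype range and the others below it (difference -5.70 points, exact two-sided permutation test, p = 0.2; -8.36 points without replicate 3). GluA1 transcript made up 37.0, 33.8 and 34.2% in wildtype libraries, against 44.0, 43.8 and 36.0% in DISC1-Δ3 libraries (difference 6.29 points, p = 0.2 by the same exact test; 8.92 points without replicate 3).

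**Figure D2:**
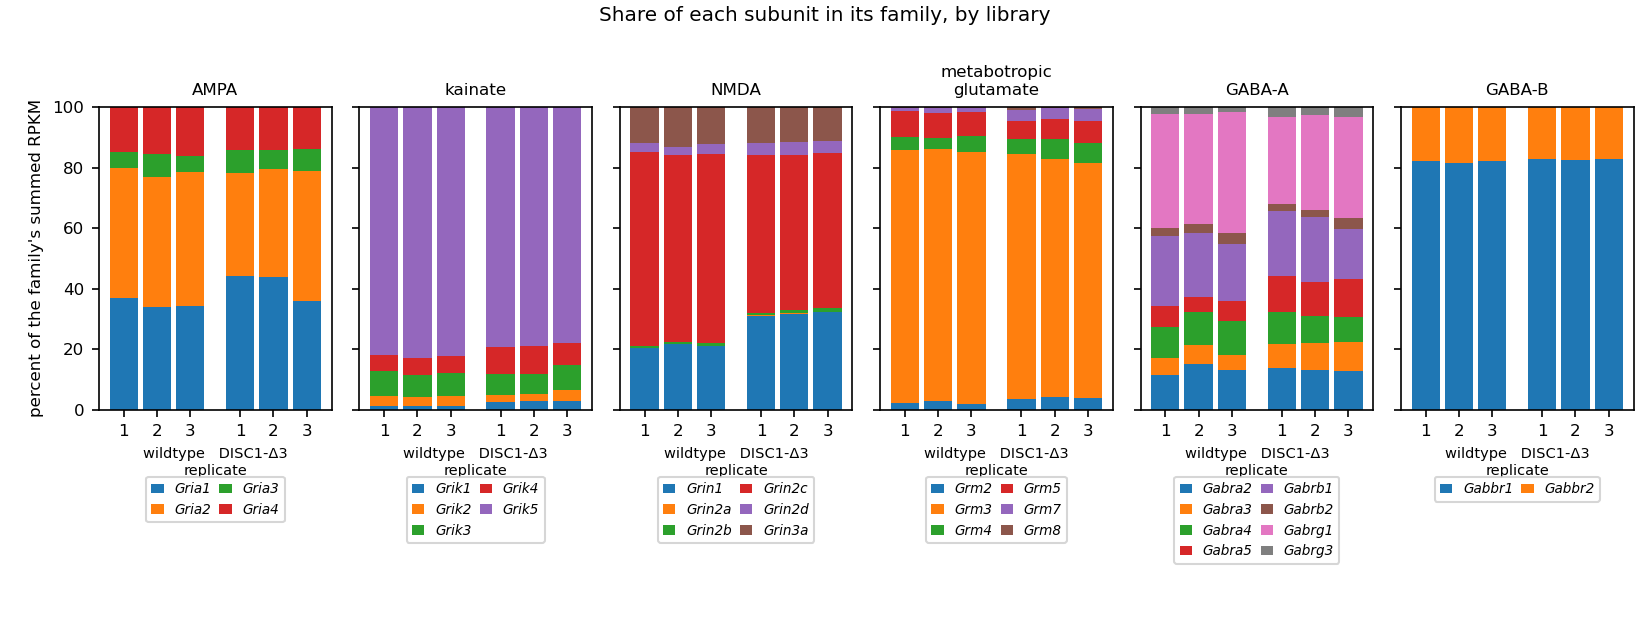
Share of each receptor gene in the summed RPKM of its family (y axis, percent), as 1 stacked bar per library, with wildtype replicates on the left and DISC1-Δ3 replicates on the right of each panel. The Grin1 segment of the NMDA panel is 20.3 to 21.5% in wildtype and 31 to 32.3% in DISC1-Δ3 libraries, and DISC1-Δ3 replicate 3 differs from its group in the AMPA panel.

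Kainate receptor genes counted 3 higher and 0 lower of 5 by edgeR, beside 20.4% higher and 19.5% lower of all tested genes. There were also 0 lower at an unadjusted p under 0.05 and 0 by DESeq2, in a family of only 5 genes. Grik1 (gene ID 14805, chr16:87895901-88290863), which encodes GluK1, had 0.66, 0.66 and 0.50 RPKM in wildtype and 1.56, 1.68 and 1.85 RPKM in DISC1-Δ3 libraries, from 31, 39 and 30 reads against 78, 95 and 103. The groups were apart, and this was the highest log2 fold change of the 27 genes at 1.38 (SE 0.183, adjusted p = 9.57e-06). Grik4 (gene ID 110637, chr9:42518182-42945000), which encodes the high-affinity subunit GluK4, had 2.85, 2.81 and 2.71 RPKM in wildtype and 5.81, 5.82 and 4.76 RPKM in DISC1-Δ3 libraries. All DISC1-Δ3 values were above the wildtype ones, with replicate 3 the lowest of them, and the log2 fold change was 0.90 (SE 0.111, adjusted p = 3.95e-06). Its CpG-rich start region is printed above.

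Grik5, the other high-affinity kainate subunit (GluK5), was the most abundant ionotropic receptor transcript, with 43.7, 41.7 and 40.5 RPKM in wildtype and 51.3, 49.9 and 49.5 RPKM in DISC1-Δ3 libraries. The groups did not overlap and its rise was small, at a log2 fold change of 0.18 (SE 0.0462, adjusted p = 0.00483). Its share of kainate RPKM was 81.9 to 83.0% in wildtype and 77.9 to 79.2% in DISC1-Δ3 libraries, while the share of Grik4 was 5.34 to 5.59% and 7.49 to 9.21%. Grik2 and Grik3, which encode GluK2 and GluK3, did not pass, with log2 fold changes of -0.01 (adjusted p = 0.972) and 0.18 (adjusted p = 0.105). Grik3 passed without wildtype replicate 1 (0.28, adjusted p = 0.0208) and with scaling by RPKM sums (0.27, adjusted p = 0.0346). The sign for Grik2 changed over the alternatives, from -0.25 without replicate 3 to 0.08 without replicate 1 of DISC1-Δ3.

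NMDA receptors need the GluN1 subunit, and its gene Grin1 (gene ID 14810, chr2:25291177-25319187) was higher. It had 6.87, 6.60 and 6.54 RPKM in wildtype and 11.5, 11.7 and 11.9 RPKM in DISC1-Δ3 libraries. The spread within each group was small beside the gap, and the log2 fold change was 0.74 (SE 0.067, adjusted p = 8.47e-08). Grin1 shares 1307 exonic bases with the antisense gene Grin1os, for which the table held means of 0.00667 RPKM in wildtype and 0.07 RPKM in DISC1-Δ3 libraries. Of other genes called higher, Grin2d, Grm2, Gabra5 and Grm7 share 643, 470, 148 and 130 exonic bases with opposite-strand genes that the table did not hold. The sources used here do not state strand, and the part of antisense reads in these values was not tested. Grin2d (gene ID 14814, chr7:45831883-45871194), which encodes GluN2D, an early-expressed subunit, had 1.0, 0.86 and 1.10 RPKM in wildtype and 1.42, 1.55 and 1.43 RPKM in DISC1-Δ3 libraries. Its groups were apart too, with a log2 fold change of 0.51 (SE 0.137, adjusted p = 0.00645).

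Grin2c, which encodes GluN2C, was the most abundant NMDA subunit gene, at 21.6, 19.0 and 19.5 RPKM in wildtype and 19.3, 19.0 and 18.9 RPKM in DISC1-Δ3 libraries. These values overlapped, and the call of a fall (log2 fold change -0.18, SE 0.0581, adjusted p = 0.0218) was lost with scaling by RPKM sums (-0.09, adjusted p = 0.255), in both limma fits and without wildtype replicate 1 (-0.11, adjusted p = 0.135). Its share of NMDA RPKM was 64.0, 61.7 and 62.4% in wildtype libraries, against 52.2, 51.2 and 51.2% in DISC1-Δ3 libraries, and that of Grin1 was 20.3, 21.5 and 21.0% against 31, 31.7 and 32.3%. Shares within a library do not depend on the scaling between libraries; both differences had p = 0.1 in the exact two-sided permutation test, the smallest value 3 against 3 libraries allow. Over the 31 shares compared, the smallest adjusted p was 0.182. Grin3a, which encodes GluN3A, a subunit of juvenile receptors, did not pass (log2 fold change 0.06, adjusted p = 0.571). Grin2a and Grin2b, which encode the main GluN2 subunits of cortical neurons, were both under the filter. Grin2a had 1 to 6 reads per library, around the detection floor of 3 reads, and Grin2b had 27 to 52 reads.

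Metabotropic glutamate receptors split within the family. Grm7 (gene ID 108073, chr6:110645349-111567230), a group III receptor of presynaptic terminals, had 0.41, 0.64 and 0.43 RPKM in wildtype and 1.26, 1.18 and 1.35 RPKM in DISC1-Δ3 libraries, from 23, 39 and 26 reads against 69, 74 and 84. The groups were apart and the log2 fold change was 1.28 (SE 0.205, adjusted p = 7.13e-05). Only 1 wildtype library reached 0.5 RPKM, so Grm7 passed the level filter through the DISC1-Δ3 libraries. Grm2 (gene ID 108068, chr9:106644534-106656109), a group II receptor, had 0.92, 0.94 and 0.67 RPKM in wildtype and 1.28, 1.32 and 1.37 RPKM in DISC1-Δ3 libraries. The groups were apart, with a log2 fold change of 0.57 (SE 0.193, adjusted p = 0.0244). DESeq2 did not call it (adjusted p = 0.0862), nor did the fits without wildtype replicate 3 (0.43, adjusted p = 0.12) or DISC1-Δ3 replicate 2 (0.55, adjusted p = 0.0628).

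Grm3 and Grm5 were lower. Grm3, the other group II receptor and the dominant one here, had 33.6, 29.2 and 30.6 RPKM in wildtype and 28.5, 25.8 and 28.2 RPKM in DISC1-Δ3 libraries. The groups were apart by a narrow gap, with a log2 fold change of -0.26 (SE 0.0581, adjusted p = 0.00164). Grm5, a group I receptor coupled to phospholipase C, had 3.47, 2.83 and 2.91 RPKM in wildtype and 2.16, 2.18 and 2.73 RPKM in DISC1-Δ3 libraries. DISC1-Δ3 replicate 3 lay nearest to wildtype, and the log2 fold change of -0.46 (SE 0.103, adjusted p = 0.00176) was the lowest of the 27 genes. The call was lost with limma on log2(RPKM + 0.1) (-0.37, adjusted p = 0.0512). Grm4, a group III receptor, did not pass (0.41, adjusted p = 0.0616), though 4 of the 14 alternatives called it higher, among them the fits without wildtype replicate 3 (0.56) or DISC1-Δ3 replicate 1 (0.49). Grm8, also of group III, had 5 to 17 reads per library and was under the filter.

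GABA-A subunit genes counted 2 higher and 2 lower of the 7 tested, beside 20.4% higher and 19.5% lower of all tested genes. Gabra5 (gene ID 110886, chr7:57407669-57591016), the α5 subunit of extrasynaptic receptors, had 1.40, 0.95 and 1.30 RPKM in wildtype and 2.13, 2.13 and 2.75 RPKM in DISC1-Δ3 libraries. All DISC1-Δ3 values exceeded the wildtype ones, and the log2 fold change was 0.84 (SE 0.189, adjusted p = 0.00173). Gabra3 (gene ID 14396, chrX:72432676-72656919), the α3 subunit, had 1.10, 1.20 and 0.99 RPKM in wildtype and 1.39, 1.71 and 2.15 RPKM in DISC1-Δ3 libraries, with replicate 3 the highest. Its log2 fold change of 0.60 (SE 0.182, adjusted p = 0.0141) was 0.42 without DISC1-Δ3 replicate 3 and 0.52 without wildtype replicate 3, with adjusted p = 0.0657 and 0.0712.

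The lower GABA-A genes were Gabrg1 and Gabrb1, which encode γ1 and β1. Gabrg1 had 7.69, 6.92 and 8.15 RPKM in wildtype and 5.19, 6.04 and 7.39 RPKM in DISC1-Δ3 libraries, so that replicate 3 overlapped wildtype. Its log2 fold change was -0.37 (SE 0.101, adjusted p = 0.00718), and -0.51 without that library. The call was lost in both limma fits and without wildtype replicate 3 (-0.31, adjusted p = 0.0552). For Gabrb1, reads and RPKM differed: reads were 402, 452 and 425 in wildtype libraries, against 304, 330 and 384 in DISC1-Δ3 libraries, while RPKM overlapped at 4.71, 4.04 and 3.81 against 3.89, 4.12 and 3.72. The fit to reads gave a log2 fold change of -0.42 (SE 0.0839, adjusted p = 0.000708), and limma on log2(RPKM + 1) gave -0.08 (adjusted p = 0.531). Gabra2, Gabra4 and Gabrb2, which encode α2, α4 and β2, did not pass, with log2 fold changes of -0.13, -0.24 and -0.24. Without DISC1-Δ3 replicate 3, Gabrb2 was called lower at -0.64 (adjusted p = 0.0151). Gabrg3 (γ3) had 35 to 90 reads and was under the filter; tested without it, its log2 fold change was 0.52 (adjusted p = 0.0339).

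GABA-A genes lie in clusters, and the tested genes were read by cluster after their values were seen. On chromosome 5, Gabrg1, Gabra2, Gabra4 and Gabrb1 lie between 70751047 and 72149572, and all 4 had log2 fold changes below 0, from -0.42 to -0.13, of which Gabrg1 and Gabrb1 passed. Gabra5, the tested gene of the chromosome 7 cluster described here, had a value of 0.84. The share of Gabrg1 in GABA-A RPKM was 36.3 to 40.1% in wildtype and 28.7 to 33.3% in DISC1-Δ3 libraries, and that of Gabra5 was 4.98 to 6.90% against 11.1 to 12.4%. Neither range overlapped (p = 0.1 for both, exact permutation test, adjusted p = 0.182).

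Both GABA-B genes were lower. Gabbr1, which encodes the GABA-binding subunit, was the most abundant of the 31 genes, at 174, 160 and 165 RPKM in wildtype and 151, 145 and 140 RPKM in DISC1-Δ3 libraries, above 96.5% of tested genes in wildtype. The groups did not overlap, and the log2 fold change was -0.27 (SE 0.0458, adjusted p = 0.000131). Gabbr2, whose product couples to the G protein, had 38.0, 36.4 and 35.7 RPKM in wildtype and 30.9, 31 and 29.3 RPKM in DISC1-Δ3 libraries, with a log2 fold change of -0.35 (SE 0.0489, adjusted p = 1.59e-05). All 14 alternatives called both genes lower, with values of -0.32 to -0.19 for Gabbr1 and -0.39 to -0.26 for Gabbr2.

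**Figure D3:**
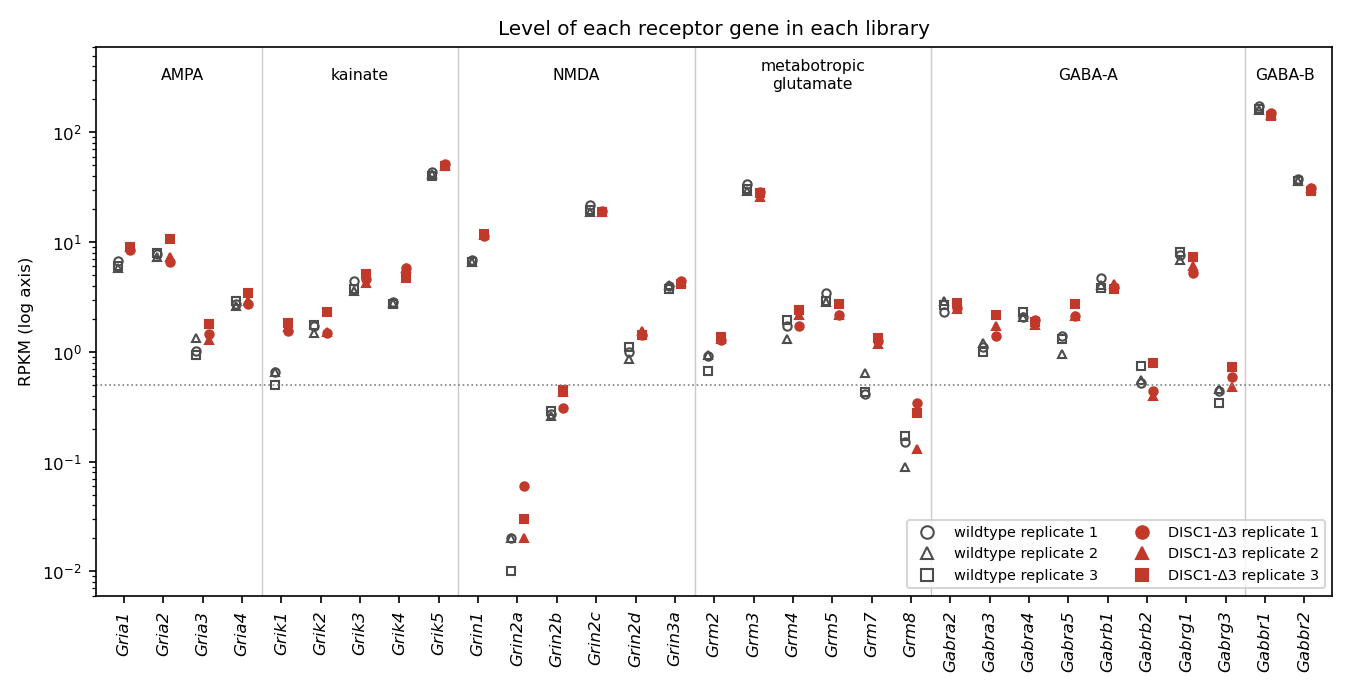
RPKM of the 31 receptor genes (log y axis) in each library, with wildtype as open grey and DISC1-Δ3 as filled red symbols and 1 symbol shape per replicate number; the dotted line is the 0.5 RPKM filter. Gabbr1 is highest at 140 to 174 RPKM and Grin2a lowest at 0.01 to 0.06 RPKM, and Gria2 shows DISC1-Δ3 replicate 3 (square) above the other libraries.

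Summed over the genes of a family, RPKM was 17.1 to 18.4 in wildtype and 19.4 to 25.0 in DISC1-Δ3 libraries for AMPA receptors. The sums were 49.2 to 53.4 against 63.2 to 64.8 for kainate, and 30.7 to 33.8 against 37.0 to 37.1 for NMDA receptors. The 3 ionotropic families were apart in the upward direction on this scale, and GABA-B receptors, with 196 to 212 against 170 to 182, were apart in the downward direction. Each had p = 0.1 in the exact two-sided permutation test. The AMPA log2 ratio was 0.28 with all libraries and 0.165 without DISC1-Δ3 replicate 3. With RPKM divided by the TMM factors the AMPA, kainate and NMDA log2 ratios were 0.20, 0.24 and 0.13, in place of 0.28, 0.33 and 0.21, with the same direction. Metabotropic receptors summed to 35.0 to 40.2 against 32.7 to 36.3 RPKM (exact permutation p = 0.3) and GABA-A receptors to 19.1 to 20.3 against 18.1 to 22.2 RPKM (exact permutation p = 1), and both overlapped.

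Direction differed by level, in a split at 10 RPKM chosen after the values were seen. Of the 5 genes at or above it on average over the 6 libraries (Gabbr1, Grik5, Gabbr2, Grm3 and Grin2c), 1 was higher and 4 lower, whereas of all tested genes at that level 21.9% were higher and 24.7% lower. Of the 22 tested genes under 10 RPKM, 9 were higher and 3 lower, beside 19% and 14.9% of all tested genes at that level. Grin1, counted as higher under the split, lay near it, with means of 6.67 RPKM in wildtype and 11.7 RPKM in DISC1-Δ3 libraries. The call for Grin2c, counted as lower above the split, was lost in 4 of the 14 alternatives. Without DISC1-Δ3 replicate 3 the counts were 1 and 4 above the split, and 8 and 5 under it. Over all levels that fit called 3314 of 13792 genes lower, beside 2691 with all libraries, and 2918 higher, beside 2807. Shares of all genes by level were not computed for it. The receptor genes share families and clusters and are not replicates of a genotype.

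**Figure D4:**
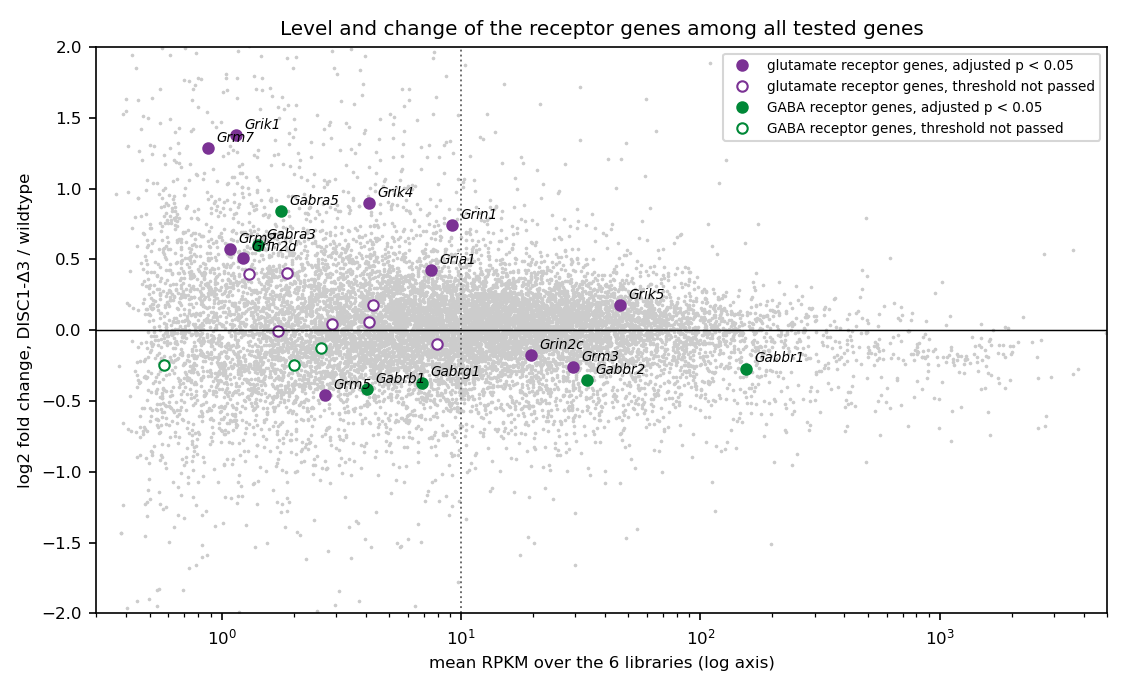
Fitted log2 fold change (y axis, DISC1-Δ3 over wildtype) against mean RPKM over the 6 libraries (log x axis) for the 27 tested receptor genes, coloured by transmitter, over all tested genes in grey; genes beyond the y axis are not drawn, and the dotted line is 10 RPKM. To the right of the line 1 of 5 receptor genes is higher and 4 are lower, beside 21.9% and 24.7% of all tested genes there. To the left 9 of 22 are higher and 3 lower, beside 19% and 14.9%.

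Genes that work with these receptors were read from lists. Beside the counts below, 20.4% of all tested genes were higher and 19.5% lower. Of other subunits in the same families, 14 were in the table and 6 were tested, of which 2 were higher and 1 lower, with a median log2 fold change of 0.23. Auxiliary and assembly subunits counted 7 higher and 4 lower of 20, with a median log2 fold change of 0.21. The higher ones were Shisa7 (0.65) and Lhfpl4 (0.21), which act on GABA-A receptors, Cacng4 (0.28), Cnih2 (0.37), Cpt1c (0.34) and Frrs1l (0.58), which act on AMPA receptors or their assembly, and Neto1 (0.54), which binds kainate receptors. The lower ones were Shisa9 (-0.24), an AMPA receptor auxiliary gene, Clptm1 (-0.16), which limits GABA-A receptor assembly, and Kctd12 (-0.37) and Kctd12b (-0.72), of the family of GABA-B auxiliary subunits.

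Postsynaptic scaffolds and clustering proteins counted 16 higher and 0 lower of 28, with a median log2 fold change of 0.25. Among all tested genes 20.4% were higher and 19.5% lower. No scaffold gene was lower at an unadjusted p under 0.05 either (edgeR, 0 of 28), nor by DESeq2 (0). Nptx2 (2.14, adjusted p = 2.63e-13) and Nptx1 (1.49, adjusted p = 1.72e-08), secreted pentraxins that gather AMPA receptors, and Lrrtm1 (1.01, adjusted p = 1.76e-05), a postsynaptic adhesion protein, had the highest values. Dlg4, which encodes the NMDA receptor scaffold PSD-95, was higher by 0.31 and Gphn, which encodes the GABA-A receptor scaffold gephyrin, by 0.27. Genes of glutamate and GABA transport and metabolism counted 3 higher and 7 lower of 22, with a median of -0.11. Without DISC1-Δ3 replicate 3 they counted 2 higher and 10 lower, and scaffolds 15 higher and 0 lower. That fit called 2918 genes higher and 3314 lower of all 13792 tested. Slc1a5, a neutral amino acid transporter that carries glutamine, was higher by 1.07 (adjusted p = 2.19e-08), and the astrocyte glutamate transporter gene Slc1a2 was lower (-0.59, adjusted p = 2.77e-08).

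Cell type markers moved in the same comparison, in which 20.4% of all tested genes were higher and 19.5% lower. The median log2 fold change was 0.47 for the 14 neuron markers, with summed RPKM of 256 to 267 in wildtype and 357 to 369 in DISC1-Δ3 libraries, and 0.47 for the 8 OPC markers. Single neuron markers ran from -0.25 to 1.19. Microglia and astrocyte markers had medians of -0.39 and -0.29. The 27 tested receptor genes, of which 10 were higher and 7 lower, ran from -0.46 to 1.38. Endothelial markers counted 4 higher of 5 and pericyte markers 5 of 5, with medians of 0.29 and 0.44, committed precursor and newly formed oligodendrocyte markers 2 higher and 2 lower of 7, and proliferation markers 1 lower of 5. Without DISC1-Δ3 replicate 3, neuron markers counted 12 higher and 2 lower, and microglia markers 8 lower of 8. That fit called 2918 genes higher and 3314 lower of all 13792 tested. The part of these other cell types in the receptor values was not tested.

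**Figure D5:**
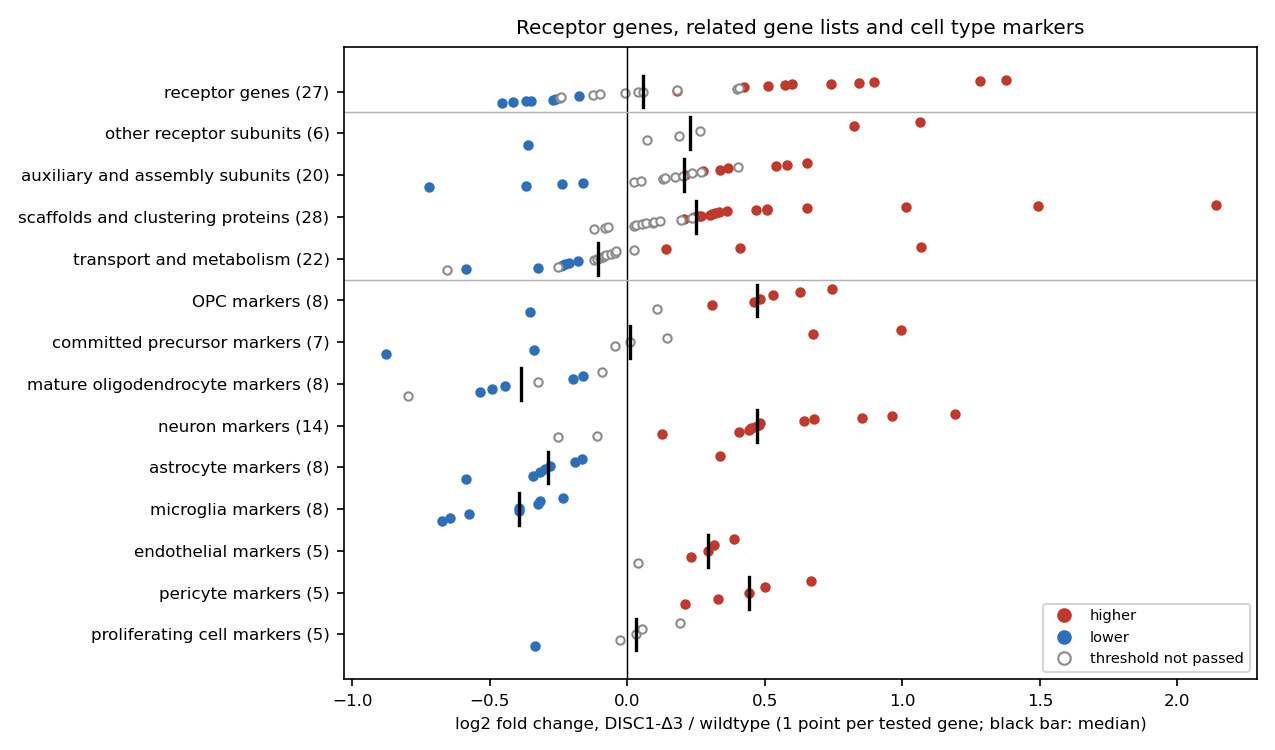
Fitted log2 fold change (x axis, DISC1-Δ3 over wildtype) of each tested gene, 1 row per list with the number of tested genes in parentheses; red is higher, blue lower and open grey not past the threshold, and black bars are medians. The receptor genes spread to both sides of 0 with a median of 0.06, scaffold genes reach 2.14, neuron markers have a median of 0.47 and microglia markers lie below 0.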

How the data were processed

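RNA from 3 wildtype and 3 DISC1-Δ3 isolates was read as single-end 50-base reads on a BGISEQ-500. The submitters' processing notes name Bowtie2 2.2.5 and mm10; the counting tool is not given in the sources used here, and the paper's text names DESeq2. The authors deposited an expected count (estimated reads per gene; 90.2% of values above 0 are whole) per gene and library. They made the RPKM from those reads and the transcript length; the authors deposited this RPKM to 2 decimals, with no factor between libraries. Another 4 group-average columns were not used. Expected counts were rounded and fitted over the 13792 genes with RPKM of at least 0.5 in at least 3 libraries by edgeR 4.0.16 (quasi-likelihood, TMM, two-sided, Benjamini-Hochberg over all tested genes) in R 4.3.3. The standard error is the absolute log2 fold change divided by the square root of F. Family sums and subunit shares used RPKM and exact two-sided permutation tests. The fit was tested on simulated data. Depth was 13716619 to 16417219 reads, and reads carry no molecular identifiers. Alternatives were DESeq2 1.42.0, limma 3.58.1 on log2(RPKM + 1) and log2(RPKM + 0.1), other filters and scalings, the replicate number as a block, and each library left out. The receptor genes, the 4 pathway lists and 9 marker lists were chosen with earlier results of these data known. All 31 genes were reported, with full statistics where the change passed at a log2 fold change of at least 0.5; list genes were named at 1 or more, and others named from the lists, as well as the clusters and the split by level, were chosen after their values were seen. Coordinates are those of RefSeq on GRCm38.p6, the assembly that mm10 is based on. Some genes of the list of other receptor subunits are not reported here.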

Additional observations from a re-analysis of the deposited data

How the results depend on the processing

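Over the 14 alternatives the count of receptor genes higher in DISC1-Δ3 libraries ran from 9 to 13, beside 10. The count of lower genes ran from 3 to 9, beside 7: limma on log2(RPKM + 1) gave 4 and limma on log2(RPKM + 0.1) gave 3. Lower genes over the whole table numbered 2691 and fell to 1755 with scaling by RPKM sums. They numbered 1774 with limma on log2(RPKM + 1) and 1763 with limma on log2(RPKM + 0.1). These scales carry no TMM factor and set the median gene at 0.07 to 0.09, and the limma fits also differ in input and model. Which of these lowered the count was not tested. DESeq2 called 4600 genes beside 5498, and 9 receptor genes higher and 7 lower. Deviations of same-numbered libraries from their group means had correlations of 0.0444, 0.0263 and -0.0288, and those of differently numbered libraries -0.0526 to 0.0273. No shared deviation by number was seen, but 3 libraries per group cannot exclude a pairing. The replicate block gave 10 higher and 7 lower receptor genes and 5429 calls. With RPKM divided by the TMM factor the family log2 ratios were 0.244 for kainate, 0.132 for NMDA and -0.286 for GABA-B, beside 0.326, 0.214 and -0.204. The GABA-A ratio, -0.00654 with all libraries, reversed when single libraries were left out, over -0.0977 to 0.0554. Receptor genes that had not passed changed sign: Gria2 at 0.0598 and 0.0637 in the limma fits with pseudocounts of 1 and 0.1, Gria4 from -0.0705 to 0.0847 with single libraries left out, and Grik2 at 0.0806 with scaling by RPKM sums, 0.0529 and 0.0721 in the limma fits, and -0.251 to 0.0834 with single libraries left out. In the GABA-A shares the difference for Gabra2 was 0.0914 points with 1 length per gene and -0.959 to 0.851 points with single libraries left out, and that for Gabrb1 ran from -2.25 to 0.494 points. Reads limit Grin2a, Grin2b, Grm8 and Gabrg3, which were under the filter.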

Other observations

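Reads and RPKM together imply a mean transcript length per gene and library, which can move where isoforms are used differently or are counted differently. In 2 of the 27 tested receptor genes (7.41%) this length was apart between the genotypes with means at least 5% apart, beside 2.07% of tested genes with a value in every library; both were picked after their values were seen. Gria2 had implied lengths of 7086, 7377 and 7386 bases in wildtype and 6985, 6493 and 6725 bases in DISC1-Δ3 libraries. Grm4, a group III metabotropic receptor gene, had 3264, 3276 and 3319 bases in wildtype and 3737, 3775 and 3516 bases in DISC1-Δ3 libraries. For Gabrb1, where reads and RPKM gave different changes, the lengths were 6222, 6815 and 6817 bases against 5492, 4963 and 6405 bases, and they overlapped. No isoform values were analysed here.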
